A study of Mus musculus with 8 samples.

Results

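The genes described here are 10 transcription factors linked to epithelial to mesenchymal transition (EMT), namely Zeb1, Zeb2, Snai1, Snai2, Twist1, Prrx1, Hmga2, Runx1, Runx2 and Sox4. They were taken by symbol from the 55450 gene identifiers of the count files, and all 10 had an identifier. A count in any library was found for 7 of the 10 and for 30946 of the 55450 identifiers. The remaining members, Snai2, Twist1 and Prrx1, were below detection, with 0 counts in all 8 libraries.

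The libraries hold polyadenylated RNA of PyMT-1099, a mouse mammary tumour line from the polyoma middle T model that loses epithelial traits when given TGF-β. The labels name a parental line and an AGPS knockout (KO) of it, and each was sequenced untreated and after 10 days of TGF-β (2 ng/ml), with 2 libraries in each of the 4 groups. Agps encodes a peroxisomal enzyme that makes the ether bond of ether lipids. The middle T background is shared by all groups. Every knockout library carries the same unexplained tag in its name and the labels do not say whether the line is 1 clone, so the loss of Agps and other differences between the lines cannot be told apart. The labels do not state that replicates are separate cultures, so p-values reflect the spread between the sequenced libraries only, and this may be technical.

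EMT factors are DNA-binding proteins that TGF-β and other signals induce in epithelial cells. Zeb1, Zeb2, Snai1 and Snai2 are zinc finger repressors that bind E-boxes in promoters of junction genes such as Cdh1, while Twist1 is a basic helix-loop-helix factor and Prrx1 a homeobox factor of mesenchyme. Hmga2 is an architectural chromatin protein induced through SMADs, Runx1 and Runx2 bind DNA together with Cbfb and cooperate with SMADs, and Sox4 is a high mobility group factor and a direct TGF-β target in mammary cells.

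Library totals ran from 17007268 to 21311831 counts. Agps stood at 357 and 330 CPM (counts scaled to a common library size) in untreated parental cells and at 32.9 and 29.3 CPM in untreated knockout cells. With TGF-β it stood at 265 and 266 CPM in parental cells and at 43.9 and 35.6 CPM in knockout cells, so its libraries matched their labels. Of the epithelial markers, Krt8, Krt18, Krt19 and Cdh1 were detected in every library and Epcam had 0 counts in all 8. The summed fibroblast markers (6 genes) ran from 0.632 to 1.55 CPM in the untreated libraries of both lines, from 42.9 to 59.2 CPM in parental cells with TGF-β and from 343 to 454 CPM in knockout cells with TGF-β. Nearly all of that came from Col6a3 and Pdgfra, since Dcn, Lum, Dpt and Fap had at most 2 counts in any library. The summed endothelial markers (5 genes) ran from 0.51 to 1.58 CPM untreated, stood at 76.5 CPM in both parental libraries with TGF-β and ran from 6.71 to 8.24 CPM in knockout cells with TGF-β, the treated sums mostly from Cdh5, with Emcn at 0 counts throughout. The summed immune markers (6 genes) ran from 1.05 to 2.95 CPM untreated and from 6.52 to 11.97 CPM with TGF-β, mostly from Cd68, with Cd3e and Adgre1 at 0. The part of these markers in the changes with TGF-β given below was not tested. In bulk RNA, fewer cells of a type and less RNA per cell cannot be told apart.

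All 7 detected factors were higher with TGF-β in both lines. Zeb2 rose most in parental cells and Snai1 in knockout cells, while Sox4, the most abundant member, rose least in each. In parental cells 7 of 7 tested members were called higher (adjusted p under 0.05, edgeR quasi-likelihood test with Benjamini-Hochberg adjustment over 14641 genes), where 21.3% of all tested genes were called higher and 42.5% in either direction. In knockout cells 7 of 7 were also called higher, where 20.9% of all genes were called higher and 41.4% in either direction. The members' median log2 fold change was 1.62 in parental cells and 2.02 in knockout cells, beside 0.01 and -0.00023 over all genes tested. The libraries with and without TGF-β did not overlap for 7 of 7 members in either line, which also held for 72.1% of all genes in parental cells and 68.8% in knockout cells. The comparisons of the lines share libraries with these contrasts, and the members were chosen with earlier results of these data known.

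**Figure D1:**
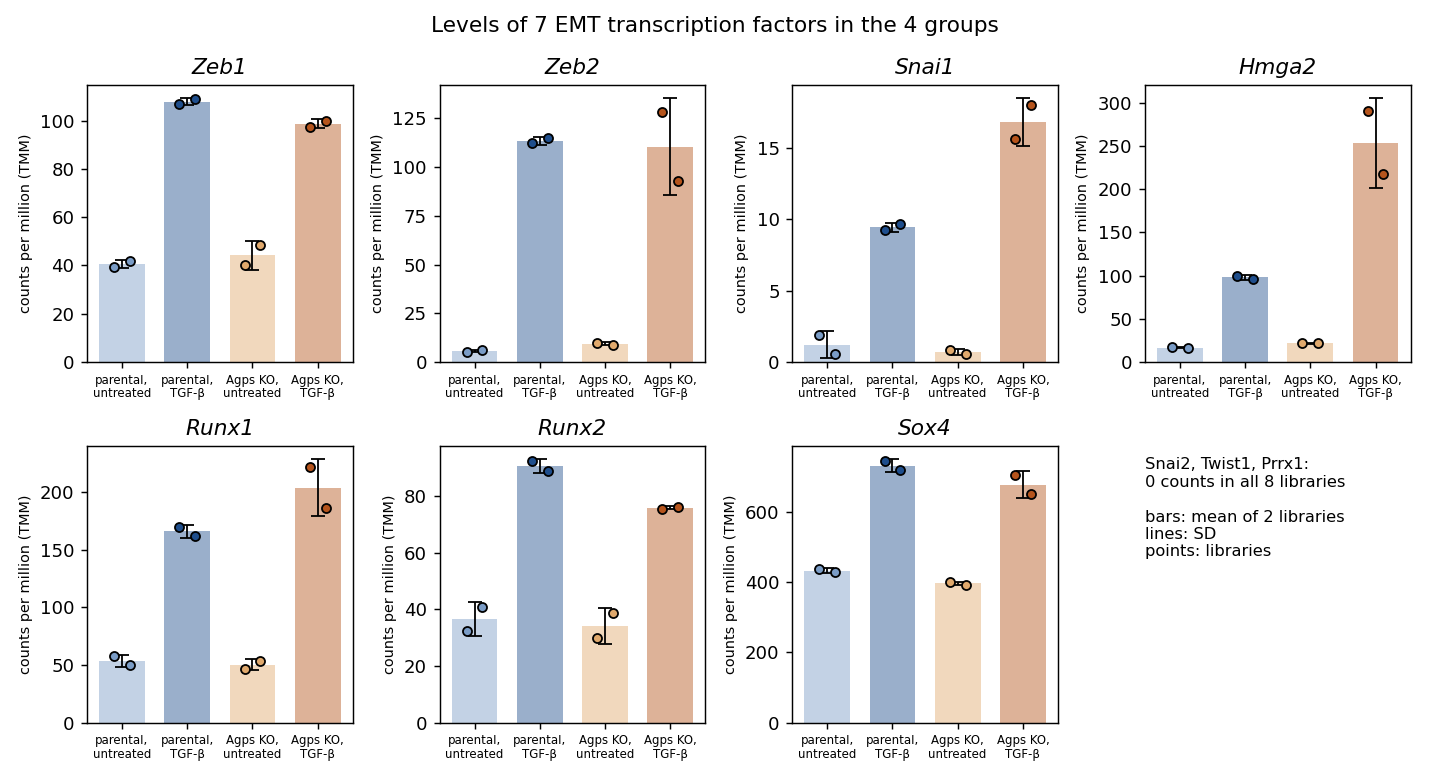
Levels of the 7 detected EMT factors in CPM after TMM scaling (linear y axes from 0), with bars for the mean of 2 libraries, lines for the SD and points for the libraries. Treated libraries lie above untreated ones in every panel, and the knockout libraries with TGF-β stand highest for Hmga2, at 290.2 and 217 CPM.

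The ZEB pair differed in its starting level. Zeb1 stood at 39.5 and 41.9 CPM in untreated parental cells, 107 and 109 CPM in parental cells with TGF-β, 40.1 and 48.6 CPM in untreated knockout cells, and 97.7 and 100.2 CPM in knockout cells with TGF-β. Every treated library lay above every untreated one, and the untreated groups overlapped. Zeb1 rose by 1.41 (SE 0.106, adjusted p = 8.84e-07) on the log2 scale in parental cells and by 1.16 (SE 0.104, adjusted p = 3.69e-06) in knockout cells.

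Zeb2 stood at 5.22 and 6.09 CPM in untreated parental cells, 112 and 115 CPM in parental cells with TGF-β, 9.85 and 8.86 CPM in untreated knockout cells, and 128 and 92.8 CPM in knockout cells with TGF-β. Both untreated knockout libraries were above both untreated parental ones, and with TGF-β the lines overlapped. The rise was 4.33 on the log2 scale (SE 0.172, adjusted p = 6.43e-09) in parental cells and 3.56 (SE 0.159, adjusted p = 1.35e-08) in knockout cells. Per kilobase of exon, Zeb2 was at 0.068 and 0.0748 of the Zeb1 level in untreated parental libraries and at 0.127 and 0.0939 in untreated knockout libraries. With TGF-β this ratio was 0.54 and 0.543 in parental cells and 0.675 and 0.477 in knockout cells. On this scale Zeb1 was above Zeb2 in all 8 libraries. The length is that of all annotated exons, which need not be that of the transcript expressed. In CPM, Zeb2 was above Zeb1 in both parental libraries with TGF-β and in knockout TGF-β replicate 1, and below it in the others. Zeb2 lies at chr2:44983632-45117395 on the minus strand (GRCm38), and 3.27% of its exonic bases overlap genes of the opposite strand that held 13 counts in all.

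Both ZEB transcripts are textbook targets of the miR-200 family, which falls into a pair of seed groups, and Hmga2 is one of let-7. The mature mouse sequences (RefSeq, GRCm38.p6) are shown because their seeds, bases 2 to 8 in capitals, define the sites counted below.
mmu-miR-200b-3p: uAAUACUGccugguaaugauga
mmu-miR-200c-3p: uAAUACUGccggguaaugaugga
mmu-miR-429-3p: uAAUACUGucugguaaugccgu
mmu-miR-200a-3p: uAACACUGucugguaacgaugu
mmu-miR-141-3p: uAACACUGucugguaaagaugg
mmu-let-7a-5p: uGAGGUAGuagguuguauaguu
mmu-let-7b-5p: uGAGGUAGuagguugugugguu
mmu-let-7g-5p: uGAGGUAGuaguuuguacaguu

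The match to the miR-200b, miR-200c and miR-429 seed, CAGTATT, occurs 5 times in the 2401 bases of the longest annotated Zeb1 3′ UTR and 5 times in the 4941 bases of the Zeb2 3′ UTR. The match to the miR-200a and miR-141 seed, CAGTGTT, occurs 4 times in each. As many CAGTATT matches were found in 0.0377% of 2653 mouse 3′ UTRs of similar length (within 20% of its length) for Zeb1, and in 0.287% of 1046 such UTRs for Zeb2. At least 1 CAGTATT match was found in 24.2% and 37.5% of them. Each of these sets includes the UTR of the gene itself. The 5 CAGTATT matches of Zeb2, in capitals, are given below with 15 bases before and 8 after each.
Zeb2 chr2:44988166-44988195 minus strand: cgcactaccatacatCAGTATTttattatt
Zeb2 chr2:44988101-44988130 minus strand: cgcactacagtgcatCAGTATTacgattcc
Zeb2 chr2:44987739-44987768 minus strand: ttgaagcacccgtgtCAGTATTagacgact
Zeb2 chr2:44987654-44987683 minus strand: gttcattaattttgtCAGTATTacaccaaa
Zeb2 chr2:44987520-44987549 minus strand: tcatactgtagtgtaCAGTATTatagttct

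All 5 start within the first 1039 bases of the UTR. A match is a description of the letters. The libraries hold polyadenylated RNA and did not measure mature miRNAs. Over 16 hairpin identifiers of the miR-200 and let-7 families the largest total was 4 counts in 8 libraries.

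Of the SNAIL members Snai1 was detected and Snai2 was not. Snai1 stood at 1.9 and 0.527 CPM in untreated parental cells (36 and 9 counts), 9.22 and 9.65 CPM in parental cells with TGF-β, 0.821 and 0.557 CPM in untreated knockout cells (17 and 12 counts), and 15.6 and 18 CPM in knockout cells with TGF-β. Treated libraries were above untreated ones, the untreated groups overlapped, and both treated knockout libraries were above both treated parental ones. Snai1 rose by 2.92 on the log2 scale (SE 0.342, adjusted p = 3.42e-05) in parental cells and by 4.6 (SE 0.354, adjusted p = 9.74e-07) in knockout cells. The 36 counts of parental untreated replicate 1 weigh on the first value. Without that library the rise in parental cells was 4.14, and without the other untreated parental library it was 2.3. In the same library Smad7, a SMAD-induced inhibitor of the receptor, was at 163 CPM against 32.2 in the other untreated parental library, and Id1 was at 99.98 CPM against 48.9. Their part in the Snai1 result was not tested.

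The Snai1 gene lies at chr2:167538195-167542814 on the plus strand (GRCm38). Its RefSeq promoter entry, 250 bases before to 50 bases after the start site, is shown because Snai1 protein is known to bind E-boxes, its own included. The capitals mark its 1 E-box (CACCTG, either strand), 126 bases before the start.
Snai1 promoter chr2:167537945-167538244 plus strand: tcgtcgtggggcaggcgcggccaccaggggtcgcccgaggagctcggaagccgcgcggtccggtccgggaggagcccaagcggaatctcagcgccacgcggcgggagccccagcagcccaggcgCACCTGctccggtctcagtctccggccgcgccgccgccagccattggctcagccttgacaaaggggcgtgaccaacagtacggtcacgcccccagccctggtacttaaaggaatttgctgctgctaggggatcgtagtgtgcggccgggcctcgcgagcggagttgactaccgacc

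An E-box of those letters was present in 20.2% of 32851 mouse promoter entries of 300 bases. Snai1 has 1 CAGTATT and 2 let-7 matches (CTACCTC) in the 731 bases of its 3′ UTR.

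Snai2, Twist1 and Prrx1 had 0 counts in each of the 8 libraries, treated ones included. Over all 151904038 counts, 0 allows up to 3 counts, or 0.0197 CPM, and within a single library between 0.141 and 0.176 CPM. These limits cover counting error only. All 3 were thus not detectable at this depth, with or without TGF-β. Relatives of the absent members were also scarce, with 0 counts for Twist2 and at most 2 counts in any library for Prrx2. Snai3, another SNAIL factor, was detected at 0.318 to 1.42 CPM.

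Hmga2 was the factor that differed most between the lines with TGF-β. It stood at 16.9 and 16.1 CPM in untreated parental cells, 100.003 and 96.2 CPM in parental cells with TGF-β, 21.3 and 22.1 CPM in untreated knockout cells, and 290.2 and 217 CPM in knockout cells with TGF-β. The 4 groups did not overlap, and the treated knockout libraries were highest, although their spread was the widest of the 4 groups (SD 51.8 CPM). TGF-β raised Hmga2 by 2.57 on the log2 scale (SE 0.136, adjusted p = 5.54e-08) in parental cells and by 3.54 (SE 0.136, adjusted p = 4.78e-09) in knockout cells. These are rises of 5.95-fold and 11.7-fold.

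The Hmga2 gene lies at chr10:120361275-120476469 on the minus strand (GRCm38). The match to the let-7 seed, CTACCTC, occurs 4 times in the 3014 bases of its longest annotated 3′ UTR. As many were found in 0.134% of 2245 mouse 3′ UTRs of similar length, and at least 1 in 15.5% of them. This set includes the Hmga2 UTR itself. The 4 matches, in capitals, are shown because let-7 is the best known regulator of this transcript.
Hmga2 chr10:120364217-120364246 minus strand: gccgacattcaatttCTACCTCagcatcag
Hmga2 chr10:120362980-120363009 minus strand: ccccactcctcaataCTACCTCtgaatgct
Hmga2 chr10:120362542-120362571 minus strand: ctgatttgcaaggaaCTACCTCcacacttc
Hmga2 chr10:120361684-120361713 minus strand: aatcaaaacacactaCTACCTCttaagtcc

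No CAGTATT or CAGTGTT match is present in the Hmga2 UTR. Lin28a and Lin28b, which block let-7 maturation, had at most 3 counts in any library. Of the 5 genes of the Lin28 and Igf2bp list 3 were tested, and Igf2bp2, an RNA-binding protein that Hmga2 is known to induce, was called higher with TGF-β in both lines. Igf2bp2 stood at 63.8 and 65.6 CPM in untreated parental cells, 87.5 and 92.1 CPM in parental cells with TGF-β, 68.6 and 78.1 CPM in untreated knockout cells, and 134 and 125 CPM in knockout cells with TGF-β. It was called higher in knockout than in parental cells with TGF-β (log2 difference 0.53, SE 0.0936, adjusted p = 0.0026), and Igf2bp1 fell by 0.23 (adjusted p = 0.0443) with TGF-β in parental cells. In knockout cells the mean of Igf2bp1 was 139 CPM untreated and 121 CPM with TGF-β, and it was not called.

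Runx1 and Runx2 started at similar levels. Runx1 stood at 57.5 and 49.97 CPM in untreated parental cells, 169 and 162 CPM in parental cells with TGF-β, 46.8 and 53.6 CPM in untreated knockout cells, and 221 and 186 CPM in knockout cells with TGF-β. The untreated groups overlapped, while both treated knockout libraries lay above both treated parental ones. Runx1 rose by 1.62 on the log2 scale (SE 0.115, adjusted p = 5.56e-07) in parental cells and by 2.02 (SE 0.116, adjusted p = 8.79e-08) in knockout cells.

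Runx2, the osteoblast factor, stood at 32.5 and 40.9 CPM in untreated parental cells, 92.3 and 88.9 CPM in parental cells with TGF-β, 29.7 and 38.7 CPM in untreated knockout cells, and 75.4 and 76.1 CPM in knockout cells with TGF-β. The treated knockout libraries were below the treated parental ones, the reverse of the order of Runx1, and the untreated groups overlapped. Runx2 rose by 1.31 on the log2 scale (SE 0.138, adjusted p = 1.49e-05) in parental cells and by 1.14 (SE 0.138, adjusted p = 4.01e-05) in knockout cells. Per kilobase of exon, the Runx1 level was 1.3 and 0.897 times that of Runx2 in untreated parental libraries and 1.16 and 1.02 times in untreated knockout libraries. With TGF-β the ratio was 1.35 and 1.34 in parental cells and 2.16 and 1.8 in knockout cells, above the other 6 libraries. The third family member, Runx3, had 2 counts over the untreated parental libraries and 1 over the untreated knockout libraries, against 49 and 35 with TGF-β.

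Cbfb, the shared partner that stabilises RUNX proteins on DNA, stood at 173 and 144 CPM in untreated parental cells, 253 and 248 CPM in parental cells with TGF-β, 97.8 and 82.1 CPM in untreated knockout cells, and 171 and 139 CPM in knockout cells with TGF-β. It rose by 0.66 (SE 0.125, adjusted p = 0.00122) on the log2 scale in parental cells and by 0.79 (SE 0.126, adjusted p = 0.000383) in knockout cells. Both knockout groups were below the parental group of the same treatment, by a log2 difference of -0.82 (SE 0.126, adjusted p = 0.00137) untreated and -0.69 (SE 0.125, adjusted p = 0.00294) with TGF-β. Neither Runx1 nor Runx2 passed the threshold in those comparisons of the lines.

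The distal Runx1 promoter and the Runx2 promoter are shown together because both hold the RUNX motif just after the start site. Runx1 lies at chr16:92601466-92826149 and Runx2 at chr17:44495987-44814797, both on the minus strand (GRCm38). In the RefSeq entries (GRCm38.p6, 250 bases before to 50 after the start) capitals mark RUNX motifs (TGTGGT, either strand) and, in Runx1, an E-box.
Runx1 promoter chr16:92826025-92826324 minus strand: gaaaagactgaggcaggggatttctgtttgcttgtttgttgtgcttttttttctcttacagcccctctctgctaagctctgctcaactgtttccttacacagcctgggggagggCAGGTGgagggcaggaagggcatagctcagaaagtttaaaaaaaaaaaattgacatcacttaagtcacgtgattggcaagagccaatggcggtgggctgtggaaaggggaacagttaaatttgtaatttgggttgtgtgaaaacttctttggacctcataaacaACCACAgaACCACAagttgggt
Runx2 promoter chr17:44814578-44814877 minus strand: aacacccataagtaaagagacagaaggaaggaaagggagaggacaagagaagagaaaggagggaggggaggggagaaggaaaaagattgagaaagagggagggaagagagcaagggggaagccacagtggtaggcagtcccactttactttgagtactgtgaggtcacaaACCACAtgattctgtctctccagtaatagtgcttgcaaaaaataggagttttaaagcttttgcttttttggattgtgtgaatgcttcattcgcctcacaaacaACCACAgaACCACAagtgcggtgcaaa

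The longest stretch of letters common to both is 22 bases and holds both tandem motifs.
Runx1 and Runx2, common stretch: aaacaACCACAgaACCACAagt

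It begins 24 bases after the start in Runx1 and 19 after it in Runx2. A RUNX motif was present in 16.8% of 32851 promoter entries, with 2 matches in this Runx1 entry, 3 in Runx2 and none in the other Runx1 entry. Of the exonic bases of Runx2, 5.87% overlap Runx2os1 on the opposite strand, which held 109 counts over the 8 libraries.

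Sox4 was the most abundant member. It stood at 439 and 428 CPM in untreated parental cells, 746 and 719 CPM in parental cells with TGF-β, 401 and 393 CPM in untreated knockout cells, and 705 and 652 CPM in knockout cells with TGF-β. All 4 groups were apart, with the knockout libraries below the parental ones of the same treatment. Neither log2 difference between the lines passed the threshold, at -0.13 untreated (adjusted p = 0.365) and -0.11 with TGF-β (adjusted p = 0.408). Libraries of the lines also did not overlap for 50.7% of all genes untreated and 61.3% with TGF-β. Sox4 rose by 0.76 on the log2 scale (SE 0.0815, adjusted p = 1.71e-05) in parental cells and by 0.77 (SE 0.0815, adjusted p = 1.35e-05) in knockout cells, or 1.69-fold and 1.71-fold. The gene is at chr13:28948919-28953713 on the minus strand (GRCm38), and 54.6% of its exonic bases overlap Gm26735 on the opposite strand. Gm26735 held 1095 counts over the 8 libraries beside 84272 for Sox4, and whether counting used the strand is not given in the sources used here.

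**Figure D2:**
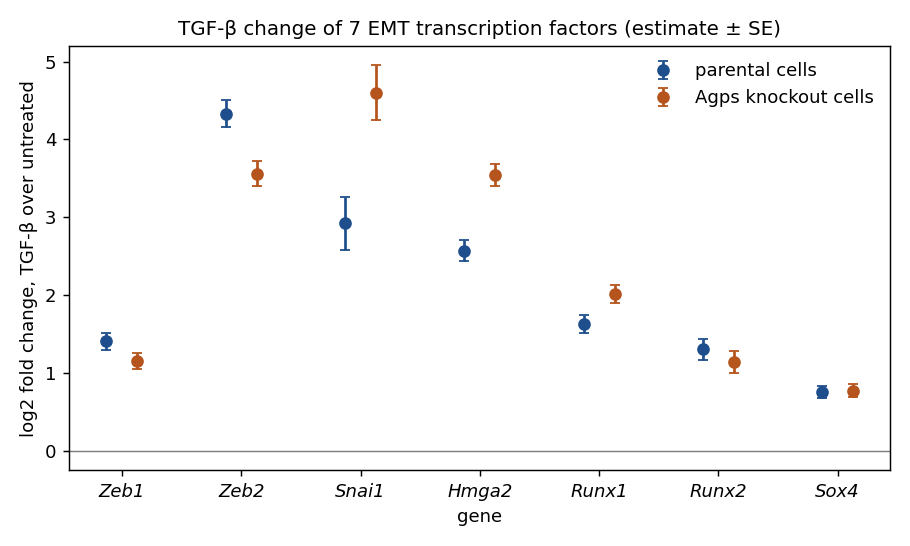
Log2 fold change with TGF-β over untreated (y axis) for each detected factor (x axis) in parental and Agps knockout cells, with points for the fitted estimate and lines for its SE. Every estimate lies above 0, from 0.76 for Sox4 in parental cells to 4.6 for Snai1 in knockout cells.

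Levels were then compared per kilobase of all annotated exons, which need not be the length of the transcript expressed. On that scale Sox4 held 84.9% of the summed level of the 7 factors in untreated parental cells. In untreated knockout cells it held 83.4%. With TGF-β its share was 71.6% in parental and 61.5% in knockout cells. In untreated parental cells the mean levels after Sox4 (90.4 CPM per kb) ran Runx1 (4.47), Runx2 (4.15), Zeb1 (3.97), Hmga2 (2.43), Snai1 (0.748) and Zeb2 (0.284). The libraries of Runx1 overlapped those of Runx2, and Runx2 those of Zeb1. Parental cells with TGF-β ran Sox4 (153), Hmga2 (14.5), Runx1 (13.8), Zeb1 (10.5), Runx2 (10.3), Snai1 (5.82) and Zeb2 (5.69), where Zeb1 and Runx2 overlapped, as did Snai1 and Zeb2.

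Untreated knockout cells ran Sox4 (82.8), Zeb1 (4.32), Runx1 (4.17), Runx2 (3.88), Hmga2 (3.21), Zeb2 (0.469) and Snai1 (0.425). Zeb1 overlapped Runx1, Runx1 overlapped Runx2, and Zeb2 overlapped Snai1. Knockout cells with TGF-β ran Sox4 (142), Hmga2 (37.4), Runx1 (17), Snai1 (10.4), Zeb1 (9.64), Runx2 (8.57) and Zeb2 (5.54), and of neighbours in this order only Snai1 and Zeb1 overlapped. Hmga2 thus moved from the fifth place to the second in each line, and its share of the summed level was 2.29% in untreated and 6.79% in treated parental cells, against 3.23% and 16.3% in knockout cells.

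**Figure D3:**
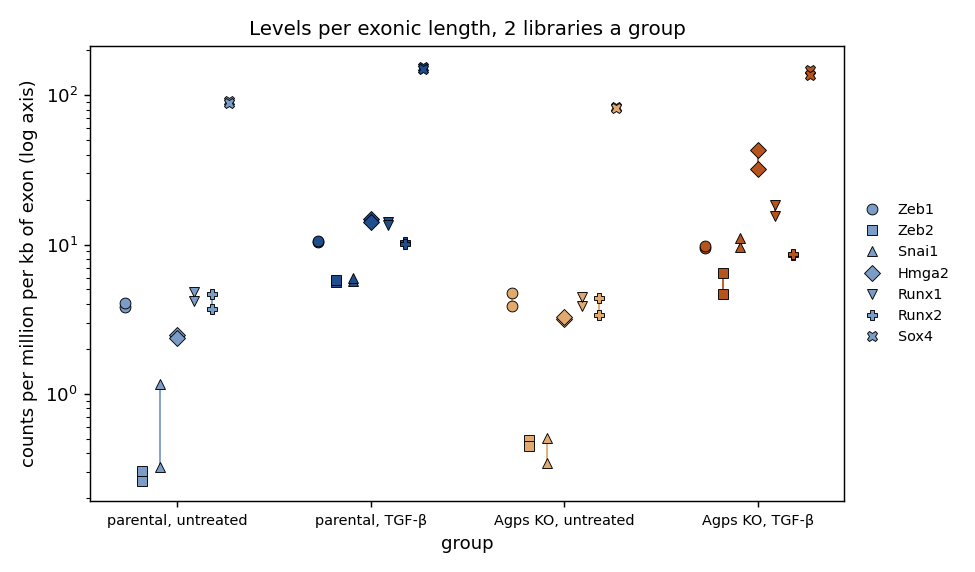
Level per kilobase of exon (log y axis, CPM per kb) of the 7 detected factors in the 4 groups, with 1 marker for each library and a line joining the 2 libraries of a group. Sox4 lies between 82.0 and 156 in all groups, and Zeb2 and Snai1 start lowest and lie at 4.65 or above with TGF-β.

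Without TGF-β the count of members called between the lines was near the background. Zeb2 was called, higher in the knockout by 0.73 on the log2 scale (SE 0.184, adjusted p = 0.0219), a count of 1 of 7 where 4.72% of all genes were called higher, 8.94% lower and 13.7% in either direction. Hmga2 was at 0.4 (SE 0.139, adjusted p = 0.0867). The other 5 ranged from -0.85 for Snai1 (95% interval -1.92 to 0.22) to 0.12 for Zeb1 (-0.11 to 0.36). The libraries of the lines did not overlap for 3 of 7 members, Zeb2, Hmga2 and Sox4, beside 50.7% of all genes. The Zeb2 call rests on 99 and 104 counts against 204 and 191. It was lost without parental untreated replicate 1 (0.61, adjusted p = 0.125) and without knockout untreated replicate 1 (0.65, adjusted p = 0.0899), and with limma voom (0.73, adjusted p = 0.0892) or a fit of the compared groups alone (0.73, adjusted p = 0.0587). The Snai1 value was 0.37 without parental untreated replicate 1 and -1.46 (adjusted p = 0.0173) without parental untreated replicate 2.

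With TGF-β, Hmga2 and Snai1 were higher in the knockout. Hmga2 was higher by 1.37 on the log2 scale (SE 0.123, adjusted p = 3.24e-05), or 2.59-fold, and Snai1 by 0.83 (SE 0.256, adjusted p = 0.0438). That is 2 of 7, where 6.82% of all genes were called higher and 17.9% in either direction. Runx1 was at 0.3 (SE 0.11, adjusted p = 0.088) and Runx2 at -0.26 (95% interval -0.55 to 0.04). Zeb1, Zeb2 and Sox4 were at -0.13 (-0.35 to 0.1), -0.04 (-0.34 to 0.26) and -0.11 (-0.29 to 0.07). Libraries did not overlap for 6 of 7 members, all but Zeb2, beside 61.3% of all genes. The Snai1 call was lost on leaving out any 1 of the 4 libraries compared (0.75 to 0.93, adjusted p = 0.118 to 0.226) and at a minimum count of 30 (0.83, adjusted p = 0.0503).

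The TGF-β change itself differed between the lines for Hmga2. The rise was larger in the knockout by 0.97 on the log2 scale (SE 0.185, 95% interval 0.57 to 1.38, adjusted p = 0.0212), the 1 call among 7 members, where 1.25% of all genes were called higher, 1.15% lower and 2.4% in either direction. Without parental TGF-β replicate 1 the difference was 1.00 (adjusted p = 0.0781), and without parental TGF-β replicate 2 it was 0.95 (adjusted p = 0.0906). The knockout libraries with TGF-β, where Hmga2 was highest, also held the most fibroblast marker RNA. Col6a3 accounted for that with 6703 and 8141 counts, and Dcn, Lum, Dpt and Fap had at most 1 count in either library. Their part in the Hmga2 result was not tested.

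Zeb2 was at -0.77 (SE 0.229, adjusted p = 0.128), Snai1 at 1.68 (SE 0.55, adjusted p = 0.17) and Runx1 at 0.4 (SE 0.159, adjusted p = 0.284), none past the threshold. Sox4 was at 0.02, with a 95% interval of -0.23 to 0.27. For Snai1 the call depended on the method and the libraries. DESeq2 gave 1.69 (adjusted p = 0.0372), no count filter gave 1.7 (adjusted p = 0.00172), and leaving out parental untreated replicate 2 gave 2.29 (adjusted p = 0.0065). Leaving out parental untreated replicate 1 instead gave 0.46 (adjusted p = 0.783). For Zeb2, no count filter gave -0.75 (adjusted p = 0.00796), and leaving out knockout TGF-β replicate 1 gave -1.02 (adjusted p = 0.0418). Genes within 5 Mb of Hmga2 had a median log2 difference between the lines of 0.09 untreated and 0.12 with TGF-β, over 44 tested neighbours.

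**Figure D4:**
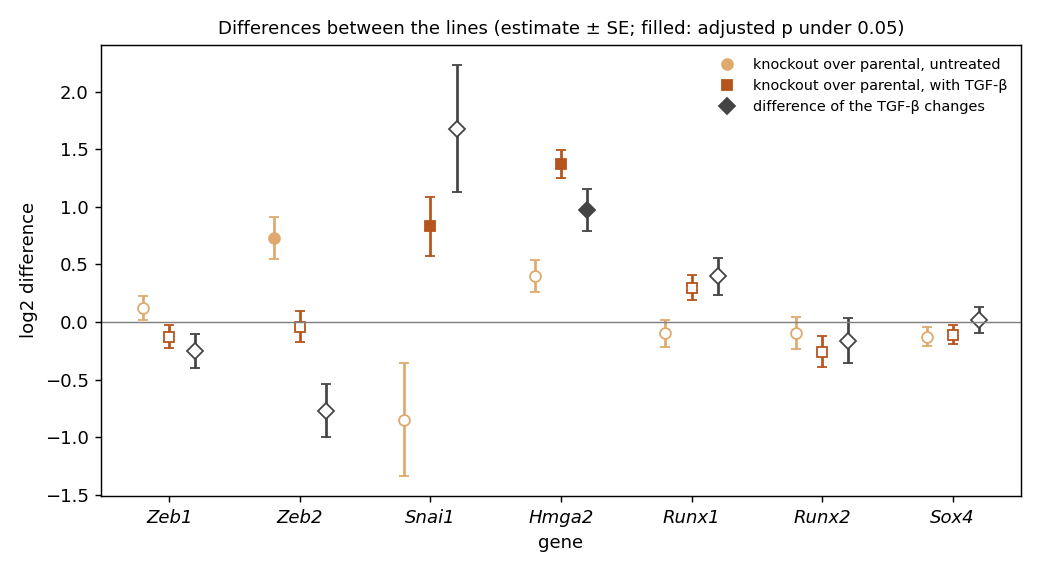
Log2 difference of knockout over parental cells at each treatment, and how far their TGF-β changes differ (y axis), for each detected factor (x axis), with lines for the SE and filled symbols for adjusted p under 0.05. Filled symbols are Zeb2 untreated, Snai1 and Hmga2 with TGF-β, and Hmga2 for the difference of the changes, at 0.97.

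The genes whose pattern over the 8 libraries lay nearest to each factor were found by root mean square distance of centred log2 CPM. Only the 9137 genes with an average log2 CPM of at least 3 were searched. Zeb2 was nearest to Fn1, fibronectin (distance 0.197), then Spsb1 (0.24) and Itga5, a fibronectin receptor subunit (0.289). Hmga2 was nearest to the kinase gene Lrrk2 (0.206), Gm20544 (0.341) and the integrin gene Itgb3 (0.352). Zeb1 and Runx2 had the same nearest gene, Map3k20 (0.0642 and 0.0906), followed by Rab30 and Tnk2 for Zeb1 and by Sema4d and Arhgap42 for Runx2. Runx1 was nearest to Itgb5 (0.111), Tiam2 and Rtkn, and Sox4 to Ggct (0.0318), Acox3 and Klhl22. Of the genes searched, none lay nearer to Snai1 than Igsf11 (0.481), followed by Bmp1 and Gpc1. Snai1 itself lay below the level searched, so genes as low as Snai1 were not compared with it. The pattern of each gene includes the split between treated and untreated libraries, so these distances describe the pattern only.

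Relatives and other EMT factors outside the 10 moved less uniformly. The counts of this list and those below stand beside shares over all genes of 21.3% higher and 21.2% lower in parental cells. In knockout cells these shares were 20.9% and 20.6%. Of 20 listed 11 were tested, with 5 higher and 1 lower with TGF-β in parental cells (median 0.58 beside 0.01 over all genes) and 7 higher and 1 lower in knockout cells (median 0.81 beside -0.00023). Ets1, an ETS factor, rose from 140.6 ± 13.8 to 308 ± 7.94 CPM (mean ± SD, n = 2) in parental cells and from 119 ± 1.41 to 275 ± 29.4 CPM in knockout cells. Sox9 rose by 0.95 and 1.27 on the log2 scale (adjusted p = 0.0032 and 0.000385). Tead2, a partner of YAP, rose by 0.58 and 0.83 (adjusted p = 0.00021 and 1.05e-05). Tcf4, which encodes E2-2, rose by 0.47 (adjusted p = 0.00357) in knockout cells and stood at 61.2 ± 2.57 and 70.03 ± 0.87 CPM in parental cells. Twist2, Sox11, Sox12, Foxc2, Gsc, Six2 and Lef1 had 0 counts in all 8 libraries.

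Partners and corepressors of the factors were all expressed, and 21 of 21 were tested. With TGF-β 4 were higher and 6 lower in parental cells (median 0.07), and 6 higher and 9 lower in knockout cells (median -0.05). Over all genes, 42.5% were called in either direction in parental cells and 41.4% in knockout cells. Ctbp2, a corepressor bound by ZEB proteins, rose by 0.42 (adjusted p = 0.00273) and 0.85 (adjusted p = 1.26e-05). Suz12, a Polycomb subunit, fell from 382 ± 3.3 to 258 ± 5.94 CPM in parental cells (adjusted p = 0.000228). Ezh2, the Polycomb methyltransferase, fell from 253 ± 26.4 to 168 ± 5.18 CPM in knockout cells (adjusted p = 0.000591). Kmt5a, a histone methyltransferase and Twist1 partner, fell by 0.64 (adjusted p = 9.97e-05) in knockout cells. Means with TGF-β were lower in the other line too. Suz12 stood at 440 CPM untreated and 305 CPM treated in knockout cells. In parental cells Ezh2 stood at 208 and 162 CPM and Kmt5a at 239 and 210 CPM. Suv39h1, a histone methyltransferase recruited by Snai1, was lower in the knockout both untreated (-0.78, adjusted p = 0.0013) and with TGF-β (-0.78, adjusted p = 0.00115).

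The Id genes encode inhibitors of helix-loop-helix factors. Of 4 listed 3 were tested, with 0 higher and 2 lower in parental cells (median -1.259) and 0 higher and 1 lower in knockout cells (median -0.44). Id2 stood at 351 and 317 CPM in untreated parental cells, 109 and 117 CPM with TGF-β, 256 and 252 CPM in untreated knockout cells, and 42.6 and 62.5 CPM with TGF-β. It was also lower in the knockout with TGF-β (log2 difference -1.11, SE 0.145, adjusted p = 0.000408). Id1 fell by 1.259 (SE 0.26, adjusted p = 0.00224) in parental cells. Its untreated libraries there were far apart, at 99.98 and 48.9 CPM, and the treated ones stood at 35.2 and 27 CPM. In knockout cells Id1 stood at 48.4 and 57.1 CPM untreated and at 40 and 37.9 CPM with TGF-β, and was not called.

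All 10 listed genes of the turnover of EMT factor proteins were tested, with 4 higher and 1 lower in parental cells (median 0.08) and 2 higher and 1 lower in knockout cells (median -0.02). Beside these counts, 42.5% of all genes were called in either direction in parental cells and 41.4% in knockout cells. The Snai1 kinases Lats2 and Pak1 moved in opposite directions. Lats2 rose by 0.63 (adjusted p = 0.00349) in parental cells and 0.37 (adjusted p = 0.0472) in knockout cells, and Pak1 fell by 0.63 (adjusted p = 0.000213) and fell by 0.28 (adjusted p = 0.029). Siah1a, a ubiquitin ligase, rose by 0.5 (adjusted p = 0.00391) and 0.38 (adjusted p = 0.0192), and Gsk3b rose by 0.26 (adjusted p = 0.0347) in parental cells.

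Most mesenchymal genes that the factors are known to activate rose. Of 20 listed 17 were tested, and 16 were higher and 1 lower in each line, with a median of 3.08 in parental cells and 3.83 in knockout cells. Mmp2, Mmp9, Col1a2, Pdgfra and Pdgfrb passed the count filter only because of their treated libraries. They could hardly be called lower, so their calls are no support for these counts, and the medians include them. Pdgfrb rose from 0.281 ± 0.0995 to 84.5 ± 6.29 CPM in parental cells (adjusted p = 2.12e-10) and from 0.426 ± 0.012 to 90.6 ± 4.92 CPM in knockout cells (adjusted p = 1.37e-10). Col1a1 rose by 6.71 and 7.5 on the log2 scale (adjusted p = 2.12e-10 and 1.35e-10). Mmp13, a collagenase and Runx2 target, was the gene that fell. It stood at 30.6 and 42.4 CPM in untreated parental cells, 2.17 and 2.68 CPM with TGF-β, 79.3 and 142 CPM in untreated knockout cells, and 17.3 and 20.6 CPM with TGF-β, and was higher in the knockout at both treatments (adjusted p = 0.001 and 0.000139). Runx2 itself rose in both lines. Of the 17 tested genes, 2 were higher and 4 lower in the knockout untreated, where 4.72% and 8.94% of all genes were. With TGF-β 3 were higher and 6 lower, beside 6.82% and 11.1% of all genes. Postn, a matrix protein gene, was lower in the knockout with TGF-β (log2 difference -2.26, SE 0.261, adjusted p = 0.000182).

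Epithelial genes that the factors are known to repress were called in both directions. Of 24 listed 16 were tested, with 6 higher and 10 lower in parental cells (median -0.75) and 6 higher and 9 lower in knockout cells (median -0.54). Cdh1, the classic target of Snai1 and the ZEB factors, stood at 582 and 702 CPM in untreated parental cells, 128 and 140 CPM with TGF-β, 287 and 317 CPM in untreated knockout cells, and 52.3 and 52.4 CPM with TGF-β. Knockout libraries were below parental ones at both treatments, by -1.09 untreated (adjusted p = 5.92e-05) and -1.35 with TGF-β (adjusted p = 1.4e-05). Ocln, of tight junctions, changed by -3.77 and -3.04 on the log2 scale (adjusted p = 3.65e-08 and 4.17e-08), and Tjp3 changed by -3.49 and -3.87 (adjusted p = 3.42e-06 and 1.98e-06).

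Genes of that list moved upward too. Cldn4, a claudin, had 14 and 2 counts in the untreated parental libraries and 283 and 243 with TGF-β, and 0 in both untreated knockout libraries against 180 and 174. St14, the serine protease matriptase, had 1 and 0 counts untreated and 94 and 67 with TGF-β in parental cells, and 0 in both untreated knockout libraries against 81 and 74. Of the genes called higher, Cldn4, St14, Cdh3, Pkp3 and Grhl2 passed the count filter only because of their treated libraries. They could hardly be called lower, so their calls are no support for a split of the list. Pkp2 was called higher and was well counted untreated. It held 2824 counts in untreated parental and 3008 in untreated knockout cells, against 5403 and 4641 with TGF-β. Epcam and Cldn7 had 0 counts in all 8 libraries.

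The epithelial transcription and splicing factors include several opponents of the ZEB factors. Of 15 listed 8 were tested, with 1 higher and 5 lower in parental cells (median -0.68) and 1 higher and 4 lower in knockout cells (median -0.43). The 1 called higher in parental cells, Grhl2, passed the count filter only because of its treated libraries. Of all genes, 21.2% were called lower in parental and 20.6% in knockout cells. Ehf, an ETS factor of epithelia, fell from 135 ± 20.7 to 19.7 ± 1.75 CPM in parental cells (adjusted p = 4.12e-08) and from 150 ± 22.1 to 27.3 ± 0.732 CPM in knockout cells (adjusted p = 7.56e-08). Klf5 changed by -1.16 and -1.36 on the log2 scale (adjusted p = 4.05e-06 and 1.13e-06), Grhl1 by -1.469 and -1.0009 (adjusted p = 0.0036 and 0.0296), and Esrp2, a splicing factor, by -0.85 and -0.44 (adjusted p = 0.000399 and 0.0251). Esrp2 was lower in untreated knockout than in untreated parental cells (-0.89, adjusted p = 0.00129).

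Genes of the TGF-β pathway upstream of the factors were all tested, 17 of 17. In parental cells 8 were higher and 2 lower (median 0.4), and in knockout cells 8 were higher and 3 lower (median 0.36). Pmepa1, a feedback inhibitor, rose by 2.64 and 2.73 on the log2 scale (adjusted p = 7.31e-08 and 5.2e-08). The receptor genes parted. Tgfbr1 stood at 148 and 144 CPM in untreated parental cells, 178 and 208 CPM with TGF-β, 165 and 165 CPM in untreated knockout cells, and 533 and 484 CPM with TGF-β, and its change was larger in the knockout by 1.22 (SE 0.132, adjusted p = 0.000979). Tgfbr2 changed by -1.4 and -1.69 (adjusted p = 1.74e-07 and 3.89e-08).

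**Figure D5:**
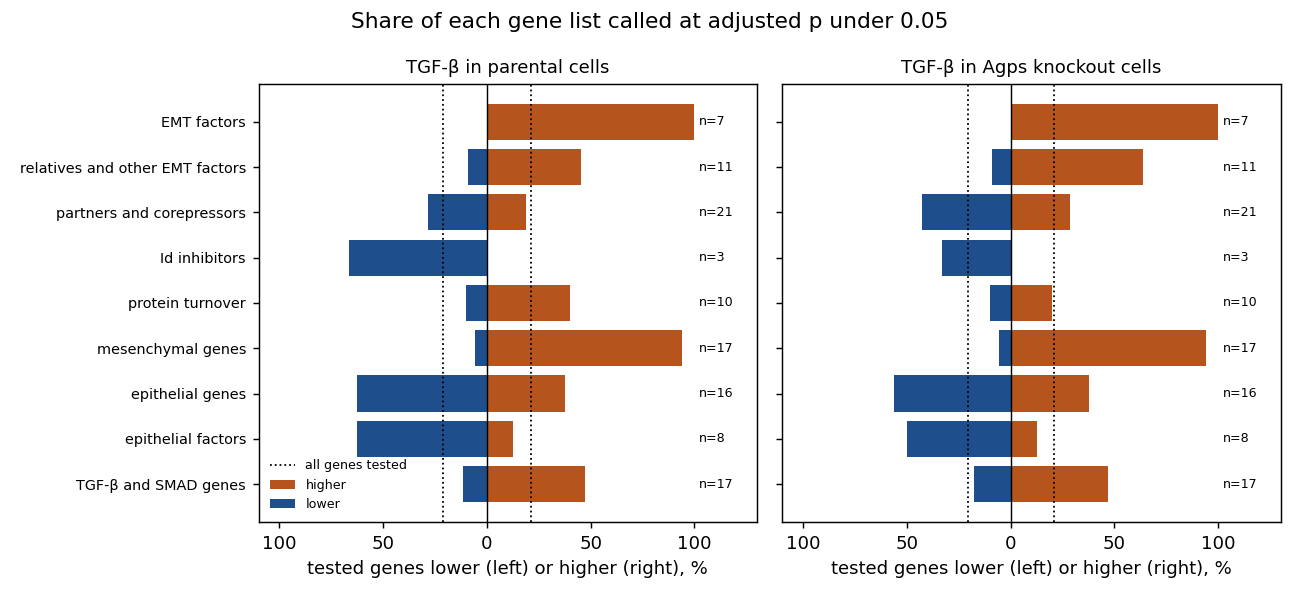
Share of tested genes of each list called higher (bars to the right) or lower (bars to the left) with TGF-β, in percent, for parental (left) and Agps knockout cells (right), with n for the genes tested and dotted lines for all genes tested. The EMT factors reach 100% higher (7 of 7) in both lines, beside 21.3% and 20.9% of all genes.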

How the data were processed

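The submitters' processing notes name STAR 2.7.1a, featureCounts 1.6.2 and the mouse build GRCm38 (mm10). The authors deposited raw counts per gene, 1 file for each library, and these counts were analysed as they stand. A deposited normalized table was not used. Which annotation release and strand setting were used is not given here. Names, positions and exonic lengths came from GENCODE M21, whose identifiers match the files.

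The filter filterByExpr, at a minimum count of 10, kept 14641 genes with 99.88% of counts. All 8 libraries entered 1 edgeR 4.0.16 quasi-likelihood fit (R 4.3.3, TMM scaling, 4 residual degrees of freedom, Benjamini-Hochberg per contrast). The fit was also run on simulated counts with far fewer changed genes than were called with TGF-β here. That run therefore does not show how the fit does on data like these. SE is the log2 fold change over the root of F, and intervals are 95%. All 7 detected members reached the filter's 0.523 CPM in all 8 libraries, untreated ones included. Listed genes with few counts in a group, such as Runx3, Usp27x and Tgfbr3, passed only because of the groups where they are high. Alternatives used DESeq2 1.42.0, limma 3.58.1, other scalings and filters, the compared groups alone, a replicate block and each library left out.

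The members, lists and tests were chosen with earlier results of these data known. Named genes are the members, Agps, up to 4 called genes of each list with the largest changes with TGF-β (average log2 CPM of at least 1), up to 2 in other contrasts, and the 3 nearest in pattern. Genes at 0 counts, Runx3, Snai3, Smad7 in single libraries and genes with opposite-strand overlap were named after their values were seen. No fold is given where a group held 3 counts or fewer. Promoter and miRNA sequences are RefSeq's, taken for 8 of the 10 members and 8 miRNAs. Promoter and site sequences on chromosome 18, which holds Zeb1, were left out. Seed matches were counted in the longest annotated 3′ UTR.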

Additional observations from a re-analysis of the deposited data

Results flagged for a closer look

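The Hmga2 response to TGF-β differed between the lines in the test of the difference itself. The log2 rise was larger in knockout than in parental cells by 0.97 (SE 0.185, adjusted p = 0.0212 in edgeR's quasi-likelihood test), with both treated knockout libraries (290.2 and 217 CPM) above both treated parental ones (100.003 and 96.2 CPM). The call did not hold when either treated parental library was left out, at differences of 1.00 and 0.95. Groups of 2 libraries are too small to look for a library far from the others.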

How the results depend on the processing

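All 7 tested members were called higher with TGF-β in both lines under every alternative run. The median of all genes moved by under 0.1 on the log2 scale with each scaling. The comparisons between the lines were less stable, with the cause not tested. Untreated, the 1 member called became 2 without a count filter and with the replicate block, 0 with limma voom or with the compared groups alone, and 0 to 2 on leaving out single libraries. With TGF-β the 2 members called became 1 at a minimum count of 30, 3 without a count filter (Runx1 added), 4 with the compared groups alone (3 higher, 1 lower) and 1 to 2 on leaving out libraries. For the difference of the TGF-β changes the 1 member called became 3 without a count filter (2 higher, 1 lower), 2 with DESeq2, and 0 to 2 on leaving out libraries. The block gave Hmga2 untreated at 0.4 (adjusted p = 0.039) as its only changed call. The labels do not say what a replicate number shares, and deviations of same-numbered libraries correlated at 0.0218 to 0.308.

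Over all genes, 2000 calls untreated became 1111 with the compared groups alone. The 352 calls for the difference became 855 without a count filter and 679 with the replicate block. On leaving out libraries the calls ran from 4466 to 6526 (TGF-β, parental), 4701 to 6439 (TGF-β, knockout), 1476 to 1813 (lines untreated), 1188 to 2922 (lines with TGF-β) and 120 to 421 (difference). No tested member's call changed sign. A library left alone in its group was assumed to vary like the others. Snai1, at 9 to 36 counts untreated, is the member that depth limits most.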
